A study of Vulpes vulpes with 8 samples.

Results

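Gap junctions are clusters of channels that join the cytoplasm of neighbouring cells, and the channels are built from connexins. The connexins GJA1, GJA4, GJA5, GJB2, GJB5, GJB6 and GJC1 were followed in gingiva of red foxes (Vulpes vulpes) that had or lacked hereditary hyperplastic gingivitis (HHG), an inherited thickening of the gums. Members were taken as every probe set, that is every group of array probes for 1 transcript, to which the platform annotation gave 1 of these 7 symbols and no other symbol. The array carried 10 such probe sets for 5 of the 7 genes, out of 15115 named genes and 42924 probe sets that were no controls. GJA1 had 2 probe sets, GJA5 and GJB2 3 each, and GJB5 and GJC1 1 each, whereas GJA4 and GJB6 were matched by none. Model fits left out the dimmest 40% of the array by mean over all foxes, and 7 of the 10 connexin probe sets, from 4 genes, passed this filter. The members were chosen by their signals in affected and unaffected foxes, GJA1 for its lower level in affected gingiva and the agreement of its probe sets, the others for their level. The values in that comparison are therefore a description, and no test of them is given.

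Connexin subunits form a ring in the membrane of 1 cell, which docks with that of the next cell and lets ions and small metabolites through. GJA1 encodes Cx43, the most widespread connexin, which is made by epithelial, stromal and vascular cells. GJB2 encodes Cx26, and it is made with GJB6 and GJB5 in stratified epithelia such as the lining of the mouth. GJA4 and GJA5 are known from arterial endothelium, and GJC1 from smooth muscle and pericytes.

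RNA came from 5 foxes diagnosed with HHG and 3 foxes without it, with 1 array per fox, and no treatment, genotype or age is given for either group. The affected foxes were 19, 55 and 107 (males) and 381 and 757 (females), and the unaffected foxes were 86 and 97 (males) and 402 (female), numbered as in the labels. Per the labels' protocols, some pieces of gum were cut after euthanasia in the pelting season and the rest from anaesthetised animals after the whelping season, and which fox belongs to which season is not given, so season could not be tested. Fox RNA was read through dog probe sets, so a level also depends on how well dog probes pair with the fox transcript, and no probe set was set against another for level. Probe sets of 1 gene are told apart by the end of their identifier (S1_at, S1_s_at or A1_at). Values are linear MAS5 signals, and differences are on the log2(signal + 16) scale, where the offset makes differences of dim probe sets look smaller. Background was read on each array as the 95th percentile of 42 bacterial probe sets and lay between 7.42 and 16.6.

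The arrays correlated with each other at 0.901 to 0.971 over probe sets. They fell into 4 foxes of high (86, 97, 107 and 757) and 4 of low (19, 55, 381 and 402) ratio of 5' to 3' actin signal, a measure of how far the labelled RNA reached from the 3' end. Unaffected fox 86 stood apart in genes of the upper epithelial layers: the mean log2 level of 10 cornified keratinocyte genes was 7.94 there and 9.96 to 11.5 in the other foxes. For suprabasal genes it was 8.98 there and 9.90 to 11.8 in the others. For basal keratinocyte genes fox 86, at 8.66, lay within the 8.10 to 8.79 of the others. Keratinocyte, fibroblast, endothelial and leukocyte lists all read above background in most of their members, as in a mixed piece of gum, so fewer cells of a type and less RNA per cell cannot be told apart. KRT5 and KRT14, which define basal keratinocytes, had no named probe set.

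GJA1 was the connexin with the largest difference between the groups, and both of its probe sets showed it. Probe set S1_s_at read 539, 877 and 665 in unaffected foxes 86, 97 and 402. In affected foxes 19, 55, 107, 381 and 757 it read 371, 56.3, 552, 187 and 344. Every affected fox except 107 was below every unaffected fox, and fox 107 exceeded unaffected fox 86 by a narrow margin, so the groups overlapped through that pair alone. The means were 302 ± 189 (SD, n = 5) with HHG and 694 ± 170 (SD, n = 3) without it, a log2 difference of -1.43 with a standard error of 0.57. Standard errors of log2 differences are those of the limma fits, which draw each spread toward that of all probe sets. For a gene as variable as GJA1 this makes them smaller than its own spread would give. The pooled SD of log2 signal within groups was 0.97.

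The other GJA1 probe set, S1_at, read 432, 786 and 560.1 in unaffected foxes 86, 97 and 402. In affected foxes 19, 55, 107, 381 and 757 it read 308, 17.4, 438, 138 and 374. The overlap again came from foxes 107 and 86 alone. The means were 255 ± 174 (SD, n = 5) and 593 ± 179 (SD, n = 3), and the log2 difference was -1.59 with a limma standard error of 0.75. The pooled SD of log2 signal within groups was 1.29. Both probe sets lay above background in all 8 foxes, but in affected fox 55 the second one stood at 17.4 beside a background of 16.6, close to the limit of what the array could read there.

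**Figure D1:**
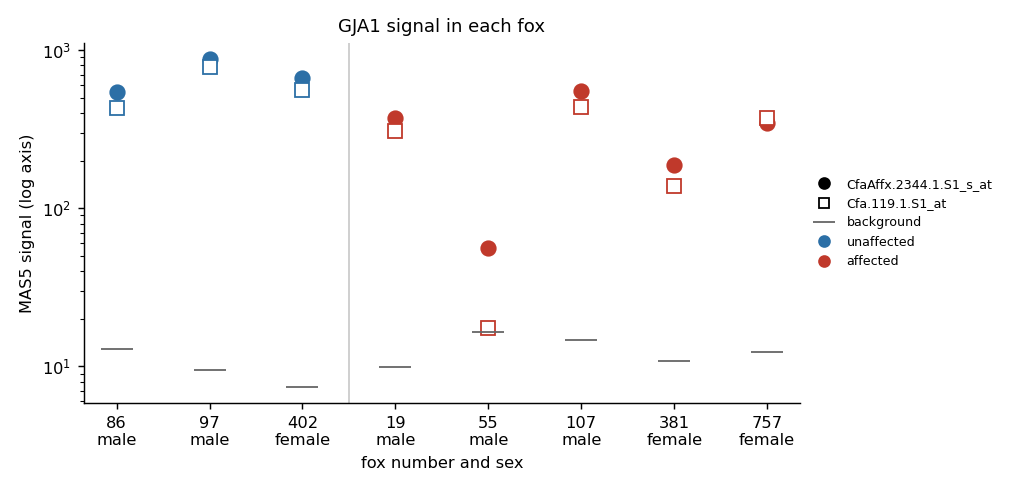
MAS5 signal (log axis) of both GJA1 probe sets in each of the 8 foxes, with filled circles for S1_s_at, open squares for S1_at, and a grey dash for each array's background. Affected fox 55 lies lowest at 56.3 and 17.4, fox 381 next, and affected fox 107 lies level with unaffected fox 86.

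The 2 GJA1 probe sets ordered the foxes almost alike. Of 28 pairs of foxes, 27 stood in the same order in both, and over the 8 foxes Pearson's r was 0.988 and Spearman's rho 0.976. This is a description, because GJA1 was chosen partly for this agreement. Pearson's r was 0.975 without fox 55 and 0.943 without foxes 55 and 381. It was also 0.988 after the mean of each group was taken away and 0.983 after the means of the actin sets were.

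With fox 55 included, GJA1 was also among the most variable transcripts within the affected group. The SD of log2 signal over the 5 affected foxes was 1.16 for S1_s_at and 1.55 for S1_at, beside a median of 0.31 over all tested probe sets. These SDs were above those of 99.1% and 99.7% of the tested probe sets. They include fox 55, which read 56.3 and 17.4, the latter beside a background of 16.6. SDs without fox 55 were not computed. Without it the standard error of the group difference was 0.34 rather than 0.57 on S1_s_at, and 0.38 rather than 0.75 on S1_at. The affected group thus held fox 107 at the unaffected level, foxes 19 and 757 under it, and foxes 381 and 55 lower still.

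The size of the GJA1 difference depended on which foxes were included. Its sign was negative in every setting run. That lends it no support, because GJA1 was chosen for its lower level in affected foxes. Without affected fox 55 the log2 difference was -0.97 for S1_s_at and -0.95 for S1_at, and leaving out each fox in turn gave ranges of -1.71 to -0.97 and -1.89 to -0.95. Within males it was -1.49 and -1.82, and within females, with 1 unaffected animal, -1.33 and -1.23. Among the 4 foxes of high 5' actin, 2 of them affected, it was -0.64 and -0.51. Among the 4 of low 5' actin, with 1 unaffected animal, it was -1.93 and -2.28. With the actin sets as a block it was -1.19 and -1.27. The 5' actin sets thus moved with the size of the GJA1 difference, and their part in it was not tested. Foxes 55 and 381, the lowest for GJA1, had the lowest log2 ratios of 5' to 3' actin, at -2.84 and -2.35. Affected fox 19 had a ratio close to that of fox 381, at -2.29, but read 371 rather than 187 on S1_s_at. Unaffected fox 402, also of low 5' actin at -1.83, read 665, above every fox but 97.

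**Figure D2:**
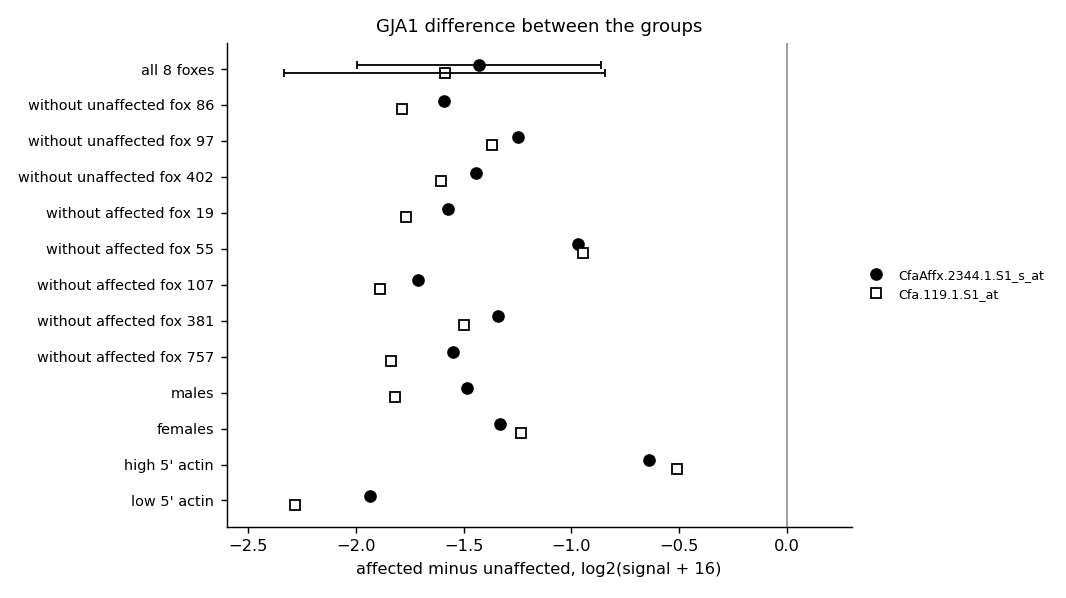
Log2 difference of GJA1 between affected and unaffected foxes for both probe sets (filled circles S1_s_at, open squares S1_at) over all foxes, with each fox left out, and within each sex and actin set. Bars on the top row are limma standard errors, which are drawn toward the spread of all probe sets. All points lie left of 0, from -2.28 among foxes of low 5' actin to -0.51 among those of high 5' actin.

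Over the whole array, 0 of 25754 probe sets passed the threshold of 0.05 between the groups in limma after Benjamini-Hochberg adjustment (0% called), and 693 had an unadjusted p under 0.05. The 7 connexin probe sets tested were among those not called. Groups without overlap were seen in 2.43% of the tested probe sets, and in 0 of the 7 connexin probe sets. A mean lower by 1 or more on the log2 scale was found for 24 probe sets (0.0932%), to which both GJA1 probe sets belong. The affected mean was lower in 56.5% of all tested probe sets and in 3 of the 7 connexin ones. Nothing is read from these shares, because the choice of members used this comparison.

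GJB2 showed no such gap between the groups. Its S1_at probe set read 6204, 6522 and 4789 in unaffected foxes 86, 97 and 402, and 6706, 5257, 7068, 4894 and 8078 in affected foxes 19, 55, 107, 381 and 757. The groups overlapped, with affected foxes 19, 107 and 757 above every unaffected fox and affected foxes 55 and 381 below foxes 86 and 97. The means were 6401 ± 1316 (SD, n = 5) with HHG and 5839 ± 923 (SD, n = 3) without it, a log2 difference of 0.12 with a standard error of 0.21. That difference was -0.02 without unaffected fox 402, so its sign is not settled.

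The S1_s_at probe set of GJB2 read 4154, 4172 and 2913 in unaffected foxes 86, 97 and 402, and 5097, 3277, 4561, 2912 and 5846 in affected foxes 19, 55, 107, 381 and 757. The log2 difference was 0.18 with a standard error of 0.26, and it was 0.01 to 0.31 with each fox left out. The pair agreed over the foxes at r = 0.977 and rho = 0.952, with 26 of 28 fox pairs in the same order. Foxes 381 and 402, both females of low 5' actin, were the lowest on both, and female fox 757 was the highest.

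The third GJB2 probe set, A1_at, was dim and was left out by the filter. It read 9.71, 6.02 and 10.7 in unaffected foxes 86, 97 and 402 and 12.1, 16.01, 23.03, 12.98 and 19.5 in affected foxes 19, 55, 107, 381 and 757. All affected foxes were above all unaffected ones, but it lay above background in 5 of the 8 foxes, of which 1 was unaffected, so most of its unaffected values are at background. Over all 42924 probe sets, 2.74% had groups without overlap. It did not follow the brighter GJB2 probe sets, with r of 0.345 and 0.299 over the foxes.

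GJB5, a connexin of stratified epithelium, read 62.1, 116 and 98.5 in unaffected foxes 86, 97 and 402. In affected foxes 19, 55, 107, 381 and 757 it read 140.0, 112, 104, 106 and 72.3. It was lowest in unaffected fox 86 and affected fox 757 and highest in affected fox 19, and the groups overlapped. The log2 difference was 0.19 with a standard error of 0.23; it was -0.02 without unaffected fox 86 and -0.14 within females.

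GJA5 encodes Cx40 of arterial endothelium and was read by 3 probe sets that did not agree. The S1_at probe set read 42.99, 54.5 and 43.98 in unaffected foxes 86, 97 and 402, and 59.8, 43.5, 42.3, 31.9 and 52.01 in affected foxes 19, 55, 107, 381 and 757. The A1_at probe set read 61.9, 35.1 and 26.2 in the same unaffected foxes and 35.4, 39.4, 47.8, 34.7 and 50.9 in the affected ones. Both were above background in all foxes, with overlapping groups and log2 differences of -0.04 and 0.05. With each fox left out these ran from -0.12 to 0.05 for S1_at and from -0.14 to 0.30 for A1_at, and within females A1_at differed by 0.46, so neither sign is settled. They ordered 13 of 28 fox pairs alike, at r = -0.01, so the gene had no single order of foxes. The dimmest, S1_s_at, ran from 2.53 to 21.8, was above background in 4 foxes, and varied with A1_at at r = 0.803.

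GJC1 encodes Cx45, and its only probe set ran from 7.78 to 17.6 and was above background in 4 of 8 foxes. It was dim in both groups, at 12.6 ± 3.13 (SD, n = 5) with HHG and 11.1 ± 5.65 (SD, n = 3) without it, and gave no usable order of foxes.

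**Figure D3:**
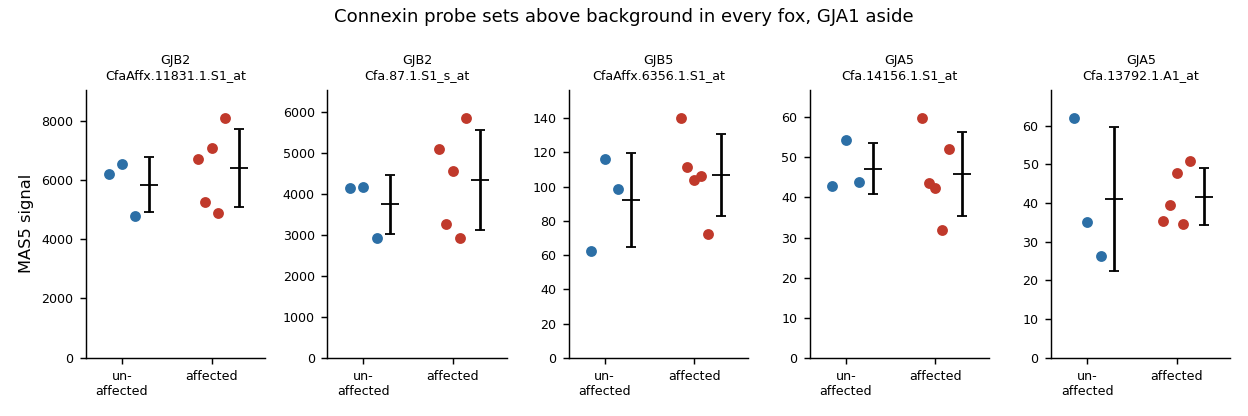
MAS5 signal (linear axes from 0, one scale per panel) of the 5 GJB2, GJB5 and GJA5 probe sets that lay above background in every fox; points are foxes (blue unaffected, n = 3; red affected, n = 5) and black bars are mean ± SD. The groups overlap in every panel.

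The fox gene table of assembly VulVul3 lists 21 connexin genes, and 9 of them had a named probe set. Beside the members these were GJA3, GJB1, GJC3 and GJD2. GJD2, a connexin best known from neurons, was above background in all 8 foxes at 23.3 to 46.7. GJA3, known from the lens, was above background in 1 fox. GJB1, known from liver and Schwann cells, was above it in 5, 2 and 0 foxes on its 3 probe sets, and GJC3, known from glia, in 0. In that assembly GJB2 lies between GJA3 and GJB6, so the member GJB6, which has no probe set, neighbours a measured one.

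Pannexins form membrane channels that are not built from connexins. PANX1, which releases ATP from cells, read 31.1, 29.6 and 30.01 in unaffected foxes 86, 97 and 402. In affected foxes 19, 55, 107, 381 and 757 it read 25.3, 10.02, 31.01, 17.4 and 26.1. The unaffected foxes were close together, and foxes 55 and 381, the lowest for GJA1, were also the lowest for PANX1. The groups overlapped through fox 107. PANX1 lay above background in 7 foxes, and in fox 55 it stood under the background of 16.6. PANX2 ran from 3.51 in affected fox 19 to 36.4 in unaffected fox 97 and was above background in 7 foxes.

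Sex had no part in choosing the members and was tested in limma with a term for group. Male minus female, GJA1 differed by -0.05 ± 0.60 (SE) on S1_s_at and by -0.32 ± 0.79 (SE) on S1_at. GJB2 differed by 0.15 ± 0.22 and 0.21 ± 0.27 (SE), GJB5 by 0.17 ± 0.24 (SE), and GJA5 by 0.14 ± 0.20 and 0.18 ± 0.23 (SE). None of the 7 passed the threshold (limma adjusted p = 0.9999 for each), where 1 of 25754 probe sets did (0.00388% called). The standard errors of GJA1 are wide enough that a sizeable difference between sexes would have been missed.

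The difference between disease groups was also compared between sexes, as an interaction with 1 unaffected female. It was -0.15 ± 1.33 and -0.59 ± 1.72 (SE) for the GJA1 probe sets, and 0.54 ± 0.51 (SE) for GJB5. None of the 7 connexin probe sets passed (limma adjusted p = 0.9999 for each), nor did any of the 25754 (0% called, with 636 at an unadjusted p under 0.05). P-values here measure only the spread between these 8 foxes.

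Joint variation of the connexins over the foxes was not detected by exact permutation. With so few foxes this does not show that it was absent. Each of the 4 genes above background in most foxes was represented by its probe set of highest mean, which gave 6 pairs. GJA5 and GJB2 had the highest correlation, at r = 0.619 (two-sided exact permutation p = 0.101, adjusted 0.608; rho = 0.333, exact p = 0.428), and r = 0.484 without foxes 19 and 381. The r of this pair was 0.665 with the group means taken away and 0.686 with the actin set means taken away. GJA1 correlated with GJB2 at r = 0.336 (exact permutation p = 0.43; rho = 0.048) and with GJB5 at r = -0.16 (exact permutation p = 0.706; rho = -0.05). Without foxes 55 and 381, which are far below the other foxes in GJA1, these values were -0.55 and 0.15. For GJA1 and GJB2, r was 0.646 with the group means taken away and 0.606 without fox 402. After adjustment 0 of 6 pairs passed, by r or by rho.

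Each connexin was set beside the mean log2 level of 10 lists of cell type markers, 40 relations in all, an addition made after the values had been seen. GJB5 gave the highest values. With the cornified keratinocyte list, the outermost gum layer, r was 0.902 over 8 foxes (two-sided exact permutation p = 0.00129, adjusted 0.0516) and rho was 0.786 (exact permutation p = 0.0279). It was 0.794 without foxes 86 and 757, 0.890 with the group means taken away and 0.861 with the actin set means taken away. With the suprabasal list r was 0.862 (exact permutation p = 0.00518, adjusted 0.104), but 0.501 without foxes 86 and 19.

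GJB5 also ran opposite to several lists of cells under the epithelium, though not alike for all. With blood endothelium r was -0.81 (exact permutation p = 0.0136, adjusted 0.157), and -0.46 without foxes 86 and 19. With leukocytes it was -0.79 (exact permutation p = 0.0157, adjusted 0.157) and -0.65 without foxes 19 and 97. With smooth muscle and pericytes it was -0.75 (exact permutation p = 0.0317, adjusted 0.254), and -0.007 without foxes 86 and 757, so that relation rests on those foxes. With fibroblasts r was -0.61, but -0.38 without fox 86 and -0.36 with the actin set means taken away. With skeletal muscle, a list of 2 tested genes, it was -0.58, but -0.22 without fox 86 and -0.29 with the actin set means taken away. With arterial endothelium r was -0.43, but rho was 0.048 and r was -0.05 without fox 19. After adjustment 0 of the 40 relations passed. For GJA1 no list gave an r beyond 0.45 in size over all 8 foxes, the largest being -0.45 with arterial endothelium (exact permutation p = 0.274, adjusted 0.689). These values moved with the foxes and the centring. With arterial endothelium r was -0.65 with the group means taken away, -0.67 with the actin set means taken away, and from -0.64 without fox 19 to -0.11 without fox 55. With leukocytes it was -0.27 over all foxes and -0.66 with the actin set means taken away, and with basal keratinocytes it was 0.33 over all foxes and 0.62 without fox 402.

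**Figure D4:**
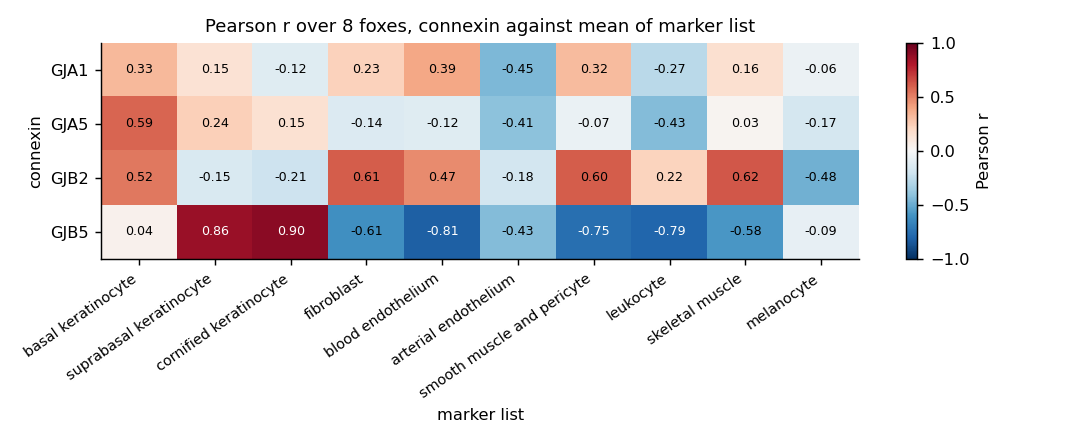
Pearson r over 8 foxes between each connexin (rows) and the mean log2(signal + 16) of each cell type marker list (columns), from -1 in blue to 1 in red. GJB5 has the strongest colours, from 0.902 with the cornified list to -0.81 with blood endothelium, while GJA1 stays within 0.45 of 0 over all 8 foxes.

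The genes whose pattern over the 8 foxes was most like that of GJA1 were ranked among 10519 genes by Pearson's r, as a description of a ranking whose ends hold the most extreme of many values. JAG1, a ligand of Notch receptors, came first at r = 0.978 and rho = 0.952. It read 292, 556 and 400.2 in unaffected foxes 86, 97 and 402, and 219, 77.1, 408, 158 and 265 in affected foxes 19, 55, 107, 381 and 757. Foxes 55 and 381 were again the lowest and fox 97 the highest, and r was 0.923 without foxes 55 and 381. The lowest ratios of 5' to 3' actin were also those of foxes 55 and 381. Fox 402, in the low set for that ratio, read 400.2. The part of that ratio in these likenesses was not tested. INTS7, a subunit of the Integrator complex that processes small nuclear RNA, followed at 0.975, and XPOT, which exports transfer RNA from the nucleus, at 0.973. For INTS7 rho was 0.833, and r was 0.827 without foxes 55 and 381. For XPOT these values were 0.976 and 0.937. PANX1 ranked seventh, with r = 0.967 and rho = 0.738, and r was 0.893 without fox 55, in which PANX1 was not above background, and 0.724 without foxes 55 and 381.

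Other genes ran opposite to GJA1. GFUS, an enzyme that makes GDP-fucose, had r = -0.99 (rho = -0.98), and FNBP1, a formin-binding protein that bends membranes, r = -0.96 (rho = -0.88). Without foxes 55 and 381, r was -0.93 for GFUS and -0.83 for FNBP1. TOP2A, a topoisomerase of dividing cells, had r = -0.98. It read 287, 210 and 234 in unaffected foxes 86, 97 and 402, and 314, 535, 235, 365 and 298 in affected foxes 19, 55, 107, 381 and 757. TOP2A was highest in foxes 55 and 381, in which GJA1 was lowest, and r was -0.91 without them. The same foxes had the lowest ratios of 5' to 3' actin, while fox 402, also of low 5' actin, read 234.

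**Figure D5:**
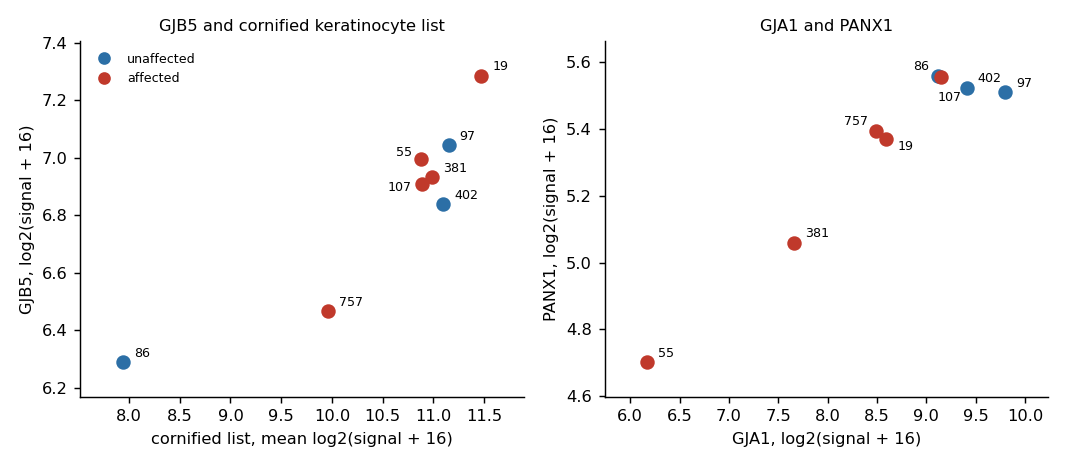
Left, GJB5 against the mean of the cornified keratinocyte list; right, PANX1 against GJA1; all on the log2(signal + 16) scale, 1 point per fox labelled by fox number (blue unaffected, red affected). Foxes 86 and 757 are low on both axes at left, and foxes 55 and 381 are low on both axes at right.

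For GJB5 the 3 most similar genes were TXN (thioredoxin, r = 0.971), DYNLL1 (a dynein light chain, r = 0.959) and CRAT (carnitine acetyltransferase, r = 0.957). All 3 were lowest in fox 86 and highest in fox 19, as GJB5 was. In the same order of genes, rho was 0.738, 0.738 and 0.952. Without foxes 86 and 757, r was 0.861, 0.764 and 0.857. For GJB2 they were PTGFRN, CYB5B and ARHGAP29, at 0.933, 0.924 and 0.920, and for the S1_at probe set of GJA5, which its A1_at probe set did not follow, TUBB1, EPS15 and ACADSB, at 0.922, 0.918 and 0.908. The GJB2 values were 0.905, 0.855 and 0.933 without foxes 381 and 402. The GJA5 values were 0.808, 0.663 and 0.756 without foxes 19 and 381.

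Genes that act with Cx43 were evenly split over all foxes. Of 22 tested partners and regulators, 11 had higher and 11 lower means in affected foxes (median log2 difference 0.006), beside 45.3% higher and a median of -0.03 over all 10848 genes, and none passed limma's threshold. Without unaffected fox 86 the count was 14 of 22 and the median 0.11, while without unaffected fox 97 the count was 10 and the median -0.006, and with an offset of 1 the median was -0.002. TJP1, the scaffold ZO-1 that binds the tail of Cx43, read 1680 ± 221 (SD, n = 5) with HHG and 1342 ± 208 (SD, n = 3) without it, a difference of 0.32. CDK1, which phosphorylates Cx43 in mitosis, differed by 0.31, although its other probe sets differed by -0.05 and 0.10. AKT1 and PRKCA, both kinases of Cx43, differed by -0.46 and -0.40, the latter above background in 7 foxes.

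Counts were uneven for other junctions of epithelial cells. Of 19 tested tight junction genes 14 had higher means in affected foxes (median 0.20) and of 11 adherens junction genes 5 did (median -0.07), and none passed limma's threshold. The tight junction count was 11 and the median 0.13 without unaffected fox 86, and the median was 0.13 without affected fox 55 and 0.12 without affected fox 757. Leaving out affected fox 55 or unaffected fox 97 turned the adherens median to 0.04 or 0.12. Among tight junction genes CLDN4, a claudin that seals epithelia, read 736 ± 325 (SD, n = 5) against 458 ± 81.2 (SD, n = 3), a difference of 0.53. CLDN3 differed by 0.66 but was above background in 5 foxes. CLDN1, the claudin of the barrier in stratified epithelium, went the other way at 134 ± 54.6 (SD, n = 5) against 229 ± 47.2 (SD, n = 3), a difference of -0.78, and MARVELD2 (tricellulin) differed by -0.41 and was above background in 6 foxes. Among adherens junction genes CDH3, or P-cadherin of basal keratinocytes, read 292 ± 157 (SD, n = 5) against 463 ± 140 (SD, n = 3), a difference of -0.72, and NECTIN4 differed by -0.32. In the other direction AFDN (afadin) differed by 0.47, with 7 foxes above background and -0.09 on its other probe set, and CTNNA1 (alpha-catenin) by 0.22, with 0.06 and 0.02 on its others.

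Cell type markers moved beside these genes in the same comparison. All 10 tested cornified genes had higher means in affected foxes (median 0.63), but 2 of 10 did without unaffected fox 86, where the median was -0.40. Means were higher for 7 of 10 suprabasal, 9 of 11 leukocyte and 9 of 11 fibroblast genes, and for 3 of 11 blood endothelial and 2 of 5 arterial genes. Most of these counts turned on 1 fox. The suprabasal count was 2 without unaffected fox 86 and 9 without unaffected fox 97. The leukocyte count was 3 without unaffected fox 97 and 5 without unaffected fox 402, but 11 of 11 without unaffected fox 86 (median 0.63). The fibroblast count was 2 without unaffected fox 402, but 11 of 11 without unaffected fox 86 (median 0.58). The blood endothelial count was 1 without unaffected fox 97 or 402, and the arterial count 1 without affected fox 55. Of the other lists, 4 of 6 basal keratinocyte, 4 of 8 smooth muscle and pericyte, 1 of 2 skeletal muscle, 3 of 5 melanocyte and 2 of 7 connexin and pannexin genes had higher means. With each fox left out the smooth muscle and pericyte count ran from 0 to 6, the skeletal muscle count from 0 to 1 and the melanocyte count from 0 to 5. The basal median was -0.08 without unaffected fox 402 and 0.23 without unaffected fox 86. The connexin and pannexin count was 1 without unaffected fox 86 and 3 without unaffected fox 97 or affected fox 381. The level of the leukocyte list ran from 6.634 to 7.997 in affected and from 6.65 to 8.22 in unaffected foxes, that of the cornified list from 9.96 to 11.5 and from 7.94 to 11.2, and that of blood endothelium from 6.43 to 6.91 and from 6.47 to 7.17, each as a mean of log2 values. The ranges overlapped for every list, and the part of tissue composition in the connexin values was not tested.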

How the data were processed

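Per the labels' protocols, gum pieces went into RNAlater, RNA was purified with a fibrous tissue kit plus DNase, and 3' IVT labelling with biotin followed. The authors deposited linear intensities, which are MAS5 signals per the submitters' processing notes. The sources used here do not give the version, the scaling or detection calls. The trimmed mean signal was 150 on every array, so the deposited arrays had been scaled to a common level. Of 43035 probe sets, 111 were controls; the annotation gave 29254 of the rest 1 symbol, 439 several and 13231 none. Signals were offset by 16 and log2-transformed without normalizing the arrays again, and 25754 probe sets (10848 genes) were fitted with limma 3.58.1 in R 4.3.3 (lmFit, eBayes, Benjamini-Hochberg, threshold 0.05). Precision is limited by the number of arrays. The probe set of highest mean stood for a gene. Correlations used Python 3.11.15 with all 40320 pairings of 8 foxes. The scripts were tested on simulated data.

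The members and the 14 gene lists were chosen with earlier results of these data known. Named were all connexin and pannexin probe sets, from each list up to 2 genes with the largest difference per direction, and per connexin the 3 genes of highest r, with the 3 of lowest r for GJA1, passing over LOC, ENSCAFG and immune receptor symbols. Alternatives covered the offset, quantile normalization, the filter, sex, the actin sets and each fox left out. The marker list relations and actin-centred correlations were added after seeing the data.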

Additional observations from a re-analysis of the deposited data

How the results depend on the processing

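No paired analysis was possible because the groups share no fox number. Offsets of 1 and 64, quantile normalization, other filters and each fox left out gave 0 calls for the disease comparison and for its interaction with sex, which could not be fitted without unaffected fox 402. Sex as a covariate and the actin sets as a block, run for the disease comparison alone, gave 0 calls too. The sex comparison gave 1 call in every setting run except 2 without affected fox 55 (range 1 to 2 with each fox left out). Signs of small values were less settled. Male minus female, GJA1 S1_s_at was 0.012 with an offset of 64 and 0.045 without the term for group, and GJA5 A1_at was -0.041 in affected foxes alone. With each fox left out, male minus female ran from -0.40 to 0.50 for GJA1 S1_s_at, -0.72 to 0.41 for GJA1 S1_at, -0.041 to 0.36 for GJA5 A1_at, -0.0032 to 0.53 for GJB2 S1_s_at and -0.012 to 0.36 for GJB5. The interaction ran from -0.74 to 0.75 and -1.29 to 0.59 for GJA1 S1_s_at and S1_at, -0.19 to 0.32 for GJA5 S1_at and -0.98 to 0.026 for GJB2 S1_s_at. Among connexin pairs, leaving out the 2 foxes farthest from the median gave r of -0.30 for GJA1 and GJA5, -0.55 for GJA1 and GJB2 and 0.15 for GJA1 and GJB5. Taking away the actin set means gave -0.11 for GJA1 and GJB2, 0.20 for GJA1 and GJB5 and 0.35 for GJB2 and GJB5, and taking away the group means gave 0.049 for GJA1 and GJB5 and 0.646 for GJA1 and GJB2. With each fox left out, r ran from -0.13 to 0.46 for GJA5 and GJB5 and from -0.41 to 0.10 for GJB2 and GJB5. The cause of these changes was not tested. With 8 arrays, small differences of any connexin were not detectable, those of the dim GJA5 and GJC1 probe sets included. The limma standard errors of the group difference were widest for GJA1, at 0.57 and 0.75.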
